A study of Mus musculus with 6 samples.

Results

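Genes that lie next to Igf2 on distal mouse chromosome 7 were read probe by probe in small-intestinal crypts. The 10 genes are Ctsd, Lsp1, Tnnt3, Mrpl23, Ins2, Th, Tspan32, Kcnq1, Slc22a18 and Phlda2, and they were chosen for their place on the chromosome. All 10 had probes among the 12268 genes that could be named, and 16 of the 41006 probes on the array were theirs, each assigned to its gene by the RefSeq accession in the array files. The LOI(+) group (loss of imprinting) was 3 mice with a maternally inherited deletion that removes 3 kb of H19 and 10 kb of sequence before it, the differentially methylated region included. The LOI(-) group was 3 wild-type mice from the same kind of cross, between H19+/- females and wild-type males. All were C57BL/6 mice aged 120 days, of which 4 are labelled male, while the labels of LOI(+) 2 and LOI(-) 3 state no sex. The deletion is in the germ line, so every cell of an LOI(+) mouse carries it. Crypts, 5000 to 13000 per mouse, were cut by laser from 10 µm sections of the middle of the small intestine. Crypt RNA was labelled with Cy3 and set on each array against the same reference RNA, a pool from 11 cultured mouse cell lines, labelled with Cy5. The dyes had the same orientation on all arrays, and any dye effect is therefore part of every ratio to the reference.

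Imprinted genes are expressed from the copy of only one parent. Igf2, a fetal growth factor gene, is expressed from the paternal copy and H19, a noncoding RNA gene, from the maternal copy, and both use enhancers on the far side of H19. The methylation-sensitive region upstream of H19 insulates the maternal Igf2 copy from those enhancers, and the series' design states that its maternal deletion activates that copy. A separate control region within Kcnq1, whose paternal copy makes the noncoding RNA Kcnq1ot1, governs the more distal domain, where Kcnq1, Slc22a18 and Phlda2 are expressed from the maternal copy in the embryo.

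In the RefSeq gene order of GRCm38.p6, Ctsd, Lsp1, Tnnt3 and Mrpl23 lie on the H19 side of Igf2. Ins2, Th, Tspan32, Kcnq1, Slc22a18 and Phlda2 follow on the other side. Ordered by distance from Igf2, Ins2 is the nearest, then come Mrpl23, Tnnt3, Lsp1, Th, Ctsd, Tspan32, Kcnq1, Slc22a18 and Phlda2. No other coding gene lies between Ins2 and Igf2 or between Mrpl23 and Igf2, and 10 lie between Igf2 and Phlda2. Ins2, Kcnq1, Slc22a18 and Phlda2 were marked as imprinted. Th and Tspan32 were marked apart, since their imprinting is described in the placenta, and the 4 genes on the H19 side were not marked. The array files name no genome build, so no coordinates are given.

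The probes are designed oligos of 60 bases, and 5 genes had more than 1. Those of Kcnq1 and Mrpl23, the genes whose own probes differed most from each other in the comparison of the groups, are shown here with those of Slc22a18, Phlda2 and Igf2, 5′ to 3′. The first is given whole and of the others the last 30 bases are given. Capitals mark the letters AATAAA, the usual signal for cutting and polyadenylation near the end of an mRNA.
Kcnq1 A_66_P102591, whole: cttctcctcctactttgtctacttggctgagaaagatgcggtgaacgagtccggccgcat
Kcnq1 A_66_P117573, end: attctctagtgatgtttgaccacaacaaga
Kcnq1 A_66_P125861, end: gccacattgaagttaggggcatcaccgatt
Mrpl23 A_66_P101642, end: cagtggttctgacaagcccaAATAAAaatt
Mrpl23 A_66_P140841, end: cgctccttcctgaccaggaggtgcggctgc
Slc22a18 A_66_P103872, end: gggagaaaaagcccggtgaccacaaagccc
Phlda2 A_66_P108132, end: attttcattccaAATAAAcaatgtcacttt
Igf2 A_66_P121673, end: atcaatctgtgacctcctcttgagcaggga
AATAAA, searched on the strand of the probe, was in 2 of the 17 probes of the 10 genes and Igf2, each read whole. It was in 7.0% of all 60-base probes on the array. Read whole, Kcnq1 A_66_P117573 holds a stop codon in each of the 3 reading frames, whereas A_66_P102591 has 1 frame without a stop. The probes of one gene shared no run of bases longer than 6. GC content differed most between the Mrpl23 probes, with 45.0% in A_66_P101642 and 76.7% in A_66_P140841, and was lowest in Phlda2, at 25.0%.

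The arrays were alike in brightness, with a median Cy3 signal of 552 to 603 per array, and over all probes the log2 ratios of any pair of arrays correlated with an r between 0.932 and 0.975. The mean r of an array with the rest was lowest for LOI(+) 2, at 0.948. As the floor of detection, the 95th percentile of negative controls was used, which lay at 439 to 449 in Cy3. No probe matched H19, so the deleted gene was not read and the group labels were not checked by it. The tissue label was checked with 9 measured markers of crypt epithelium, all above the negative controls on every array, as were 91.4% of all probes. Vil1, an actin-bundling protein of the brush border, had a mean log2 ratio to the reference of 5.79 in LOI(+) and 5.85 in LOI(-) crypts, and Lgr5, a stem cell receptor, 1.48 in LOI(+) and 1.29 in LOI(-) crypts. Krt18 and Cdx2 were near the reference, at -0.082 and -0.096 in LOI(+) and at 0.13 and 0.026 in LOI(-) crypts. Of the 9, 7 were lower and 2 higher in LOI(+). Krt8, at -0.55, and Cdx1, at -0.33, were lower at an unadjusted p under 0.05, beside 2.30% of all probes. Their adjusted p in limma was 0.81 for each, and the Cy3 signal of Cdx1, 488.9 to 545.2, was near the negative controls. Over the 9 markers the mean log2 ratio was 2.13 to 2.316 on LOI(+) arrays and 2.321 to 2.54 on LOI(-) arrays. The groups thus did not overlap, by a narrow margin. Krt19, among the 9, was saturated on 2 arrays. The part of this marker difference in the values of the 10 genes was not tested. Image extraction was run on the LOI(-) arrays before the LOI(+) arrays, so that order and the groups cannot be told apart. The number of arrays limits the precision. In dissected tissue, fewer cells of a type and less RNA per cell cannot be told apart.

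Of the 16 probes, 15 were above the negative controls in Cy3 on all 6 arrays, beside 91.4% of all probes. The exception was Tspan32, above them on 3 arrays, LOI(+) 1, LOI(+) 3 and LOI(-) 1. All 16 were above the negative controls of Cy5 on every array, and none was saturated. Cy3 signals between 439.5 and 574.0 on all arrays, close to the controls, were recorded for Lsp1, Tnnt3 A_66_P127703, Mrpl23 A_66_P140841, both Ins2 probes, Th A_66_P102005, Tspan32 and Phlda2, and this limits how much change these probes can show. Signals far above the controls came from Mrpl23 A_66_P101642, 3759.5 to 7045.7, Kcnq1 A_66_P125861, 2190.2 to 3158.4, and Slc22a18, 1191.4 to 1927.1.

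**Figure D1:**
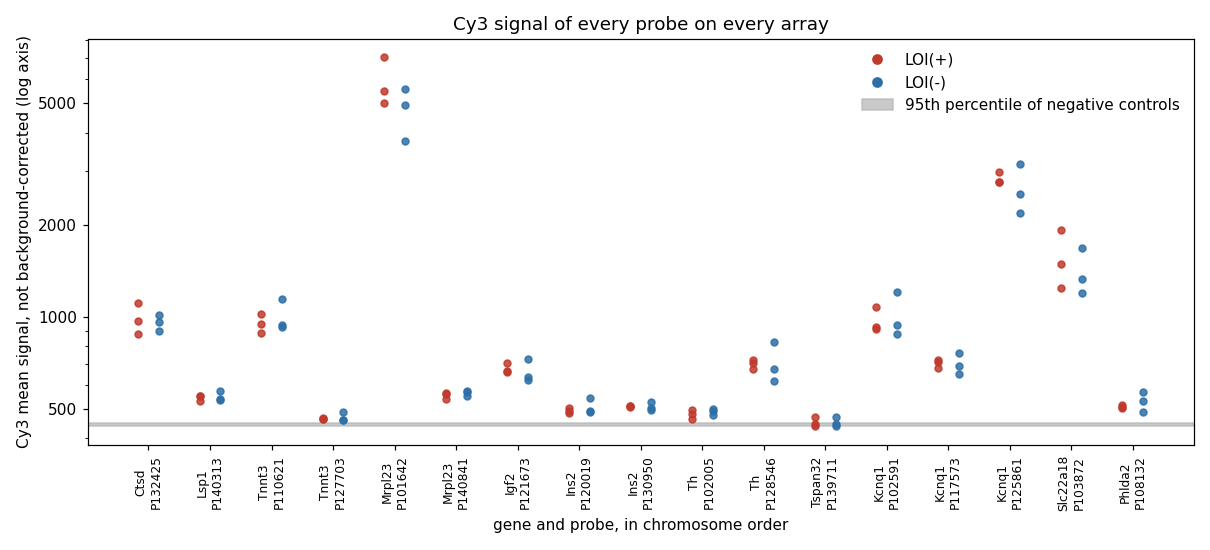
Cy3 mean signal (log axis, not background-corrected) of each probe of the 10 genes and Igf2 on each of the 3 LOI(+) and 3 LOI(-) arrays, in chromosome order, 1 point per array. The grey band is the range over arrays of the 95th percentile of the negative controls, 439 to 449, and the Tspan32 points lie on it and just above it.

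The question put to these genes was whether any neighbour of Igf2 differed in LOI(+) crypts. No probe of the 10 genes passed the test over all probes. The fit was limma's moderated test of the log2 ratio of Cy3 to Cy5, two-sided, with Benjamini-Hochberg adjustment over 41006 probes at 0.05, and 0 probes of the whole array passed it, which is 0% called. The smallest adjusted p on the array was 0.808. Without adjustment, 2507 probes (6.11% of all) had a p under 0.05, and 1 of the 16 did, from Kcnq1. Of the 16, 7 had a higher mean in LOI(+) and 9 a lower one. Their median difference, LOI(+) minus LOI(-), was -0.0034 on the log2 scale, beside 0.0023 over all probes. It was 0.0031 without LOI(+) 2 and -0.034 without LOI(-) 3, and the SD of the median log2 ratio of the 16 between arrays within a group, pooled over both groups, was 0.055. The 95% intervals of the 16 differences reached from -0.48 at their lowest, for Phlda2, to 0.57 at their highest, for Kcnq1 A_66_P125861.

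**Figure D2:**
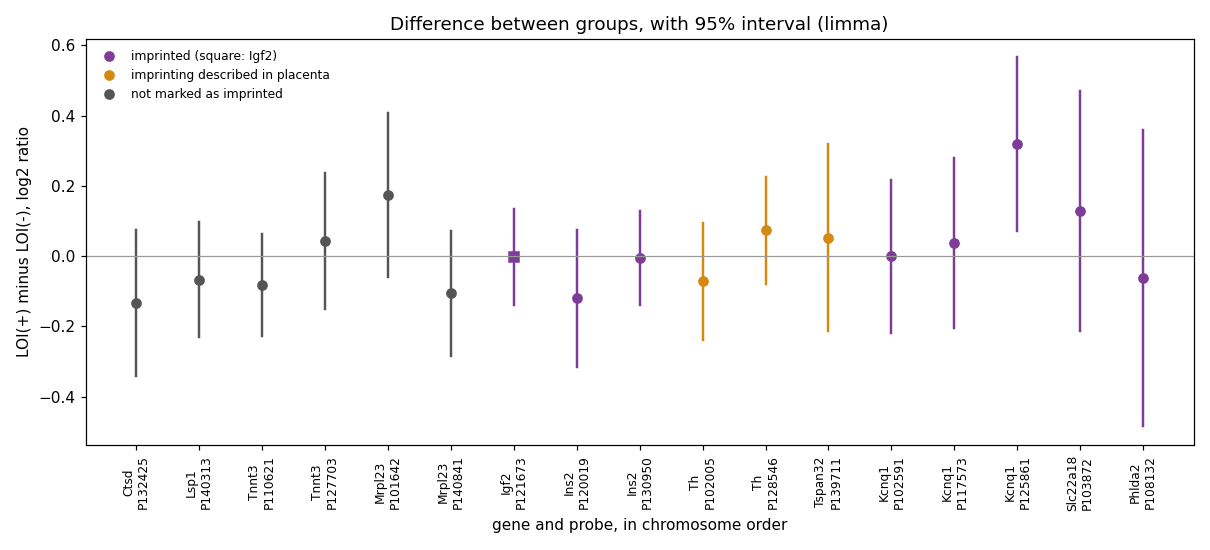
Difference of the log2 ratio, LOI(+) minus LOI(-), for each probe in chromosome order, with its 95% interval from limma (n = 3 mice per group). Colour gives the imprinting mark and the square is Igf2. The interval of Kcnq1 A_66_P125861, from 0.071 to 0.57, lies above 0, and the intervals of the other probes include 0.

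Kcnq1, the pore-forming subunit of a voltage-gated potassium channel found in heart and in the intestinal epithelium, had 3 probes. A_66_P125861 had log2 ratios of 2.46, 2.58 and 2.79 in LOI(+) crypts, against 2.21, 2.22 and 2.44 in LOI(-) crypts. All 3 LOI(+) arrays were above all 3 LOI(-) arrays, although LOI(+) 1 and LOI(-) 3 were nearly level. Groups that do not overlap in this direction were found for 6.26% of all probes. The difference was 0.32 ± 0.10 (SE, n = 3 per group), a fold of 1.25. In limma's fit across all probes it had an unadjusted p of 0.0189 and an adjusted p of 0.808. The exact permutation test, two-sided, gave p = 0.1, the smallest that 3 against 3 mice allow. Values of this probe without an array ranged from 0.23 to 0.39, and the unadjusted p went above 0.05 without LOI(+) 3, LOI(-) 1 or LOI(-) 2.

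The other Kcnq1 probes were nearly level between the groups. A_66_P117573 had log2 ratios of 1.83, 1.72 and 2.00 in LOI(+) crypts and of 1.84, 1.65 and 1.95 in LOI(-) crypts. A_66_P102591 had log2 ratios of -0.046, -0.12 and -0.20 in LOI(+) crypts and of -0.10, 0.028 and -0.29 in LOI(-) crypts. The groups overlapped for both. The difference was 0.038 ± 0.10 for A_66_P117573 and -0.00046 ± 0.092 for A_66_P102591 (SE, n = 3 per group), with adjusted p of 0.963 and 0.999 in limma. Their 95% intervals ran from -0.20 to 0.28 for A_66_P117573 and from -0.22 to 0.22 for A_66_P102591. The difference of A_66_P125861 exceeded that of A_66_P117573 by 0.28, with p = 0.1 in the exact permutation test over the arrays, and that of A_66_P102591 by 0.32, with p = 0.3. Across the 6 arrays, r was 0.58 between A_66_P117573 and A_66_P125861, and -0.81 and -0.52 between A_66_P102591 and each of these.

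Each ratio was then split into its channels, as log2 signals normalized within and between arrays. The Cy5 reading was added after the ratios had been seen. The Cy5 channel held the same reference RNA on all 6 arrays. For Kcnq1 A_66_P125861 the crypt channel, Cy3, averaged 11.75 ± 0.072 in LOI(+) and 11.74 ± 0.081 in LOI(-) crypts (SD, n = 3 each), a difference of 0.013 ± 0.11 (SE) with a 95% interval from -0.24 to 0.26. The reference channel, Cy5, averaged 9.14 ± 0.19 on LOI(+) arrays and 9.45 ± 0.11 on LOI(-) arrays (SD, n = 3 each), a difference of -0.31 ± 0.11 (SE). In these signals the higher ratio in LOI(+) was thus made up almost wholly by a lower reference signal. The Cy5 signals as scanned were 1207.4, 1176.9 and 1112.0 on LOI(+) arrays, against 1486.1, 1312.3 and 1236.1 on LOI(-) arrays. Every LOI(+) array was below every LOI(-) array there, while after normalization the highest LOI(+) array and the lowest LOI(-) array were level at 9.35. The Cy3 signals as scanned were 2755, 2967.9 and 2766.5 on LOI(+) arrays, against 3158.4, 2190.2 and 2521.2 on LOI(-) arrays. As scanned, LOI(-) 2 and LOI(-) 3 were thus below every LOI(+) array in Cy3 and LOI(-) 1 above. The level Cy3 means hold for the normalized signals only. In Cy5 this probe had an unadjusted p of 0.0257 and an adjusted p of 1.00 in limma, and 98.6% of all probes had a smaller absolute Cy5 difference. It was the only 1 of the 16 probes at an unadjusted p under 0.05 in Cy5, where 3.17% of all probes were, and 0 of the 16 were in Cy3, where 5.42% were.

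**Figure D3:**
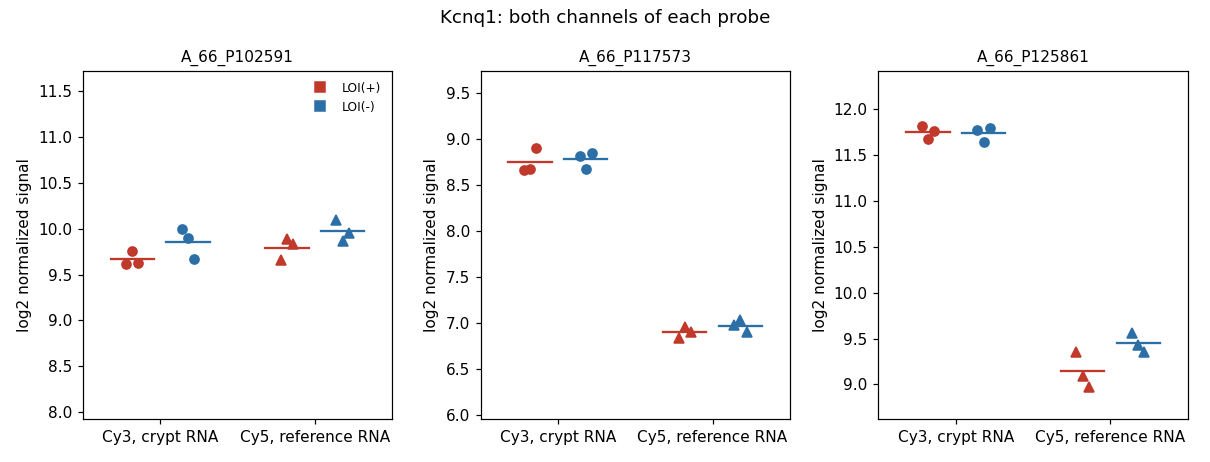
Normalized log2 signal of the 3 Kcnq1 probes in Cy3 (crypt RNA, circles) and Cy5 (reference RNA, triangles), 1 point per array with group means as lines, on vertical axes of equal span. In A_66_P125861 the Cy3 means of the groups coincide, at 11.75 in LOI(+) and 11.74 in LOI(-), and the Cy5 mean is lower on LOI(+) arrays, at 9.14 against 9.45 on LOI(-) arrays.

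A_66_P102591 showed a like shift in both channels, -0.18 ± 0.13 in Cy3 and -0.18 ± 0.092 in Cy5 (SE), which left its ratio level. A_66_P117573 differed by -0.033 ± 0.12 in Cy3 and -0.070 ± 0.071 in Cy5. In Cy5, A_66_P102591 had an unadjusted p of 0.0828 in limma.

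Slc22a18, a transporter of the organic cation family, and Phlda2, a growth-limiting protein of the placenta with a phospholipid-binding domain, are the most distal of the 10. Slc22a18 had log2 ratios of 3.04, 3.24 and 2.70 in LOI(+) crypts and of 3.02, 2.86 and 2.72 in LOI(-) crypts. Its groups overlapped, with the lowest value of all on LOI(+) 3, and the difference was 0.13 ± 0.14 (SE, n = 3 per group) with an adjusted p of 0.899 in limma. It was 0.0065 without LOI(+) 2 and 0.27 without LOI(+) 3, and 0.33 with scale normalization between arrays. Phlda2 had log2 ratios of 0.71, 0.91 and 0.66 in LOI(+) crypts and of 0.56, 1.24 and 0.67 in LOI(-) crypts. LOI(-) 2 stood highest, and the difference of -0.062 ± 0.18 became 0.15 without it. Its Cy3 signal, 489.4 to 568.2, was near the negative controls.

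The normalized log2 ratio was above 0 on all 6 arrays for Slc22a18, Kcnq1 A_66_P117573 and A_66_P125861, Phlda2, Mrpl23 A_66_P101642 and Ins2 A_66_P120019. As scanned, Mrpl23 A_66_P101642 was lower in Cy3, 3759.5 to 7045.7, than in Cy5, 8572.6 to 9442. Phlda2 and Ins2 A_66_P120019 were near the negative controls in Cy3. The mean log2 ratio was 2.99 in LOI(+) and 2.86 in LOI(-) for Slc22a18, and 2.61 in LOI(+) and 2.29 in LOI(-) for A_66_P125861. For A_66_P117573 it was 1.85 in LOI(+) and 1.81 in LOI(-), for Phlda2 0.76 in LOI(+) and 0.82 in LOI(-), and for Mrpl23 A_66_P101642 0.46 in LOI(+) and 0.29 in LOI(-). The ratio sets each gene against its own level in the pooled cell lines. The remaining Kcnq1 probe, A_66_P102591, was slightly below the reference, at -0.12 in both groups, so the probes of this gene disagreed on its standing against the reference.

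**Figure D4:**
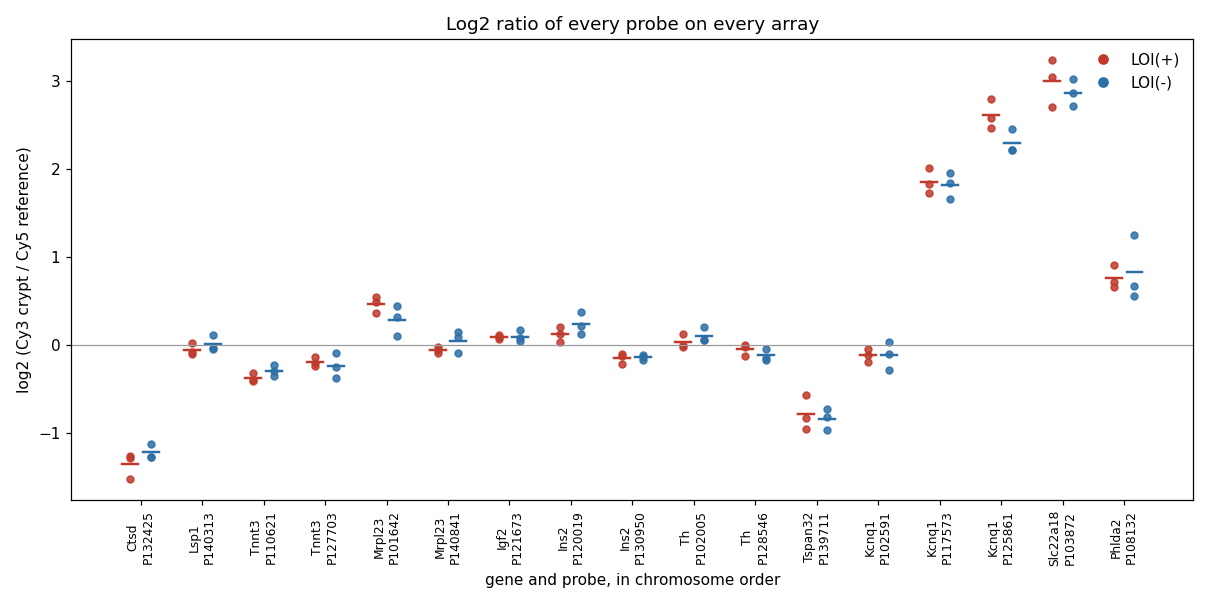
Log2 ratio of crypt RNA (Cy3) to reference RNA (Cy5) for every probe of the 10 genes and Igf2 in chromosome order, with LOI(+) and LOI(-) side by side, 1 point per array and group means as lines. Slc22a18, A_66_P117573 and A_66_P125861 of Kcnq1, Phlda2, A_66_P101642 of Mrpl23, A_66_P120019 of Ins2 and Igf2 stand above the reference on every array. Ctsd, Tspan32, both Tnnt3 probes and A_66_P130950 of Ins2 stand below it on every array.

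Ins2, an insulin gene of the mouse that is expressed from the paternal copy in the yolk sac, is the nearest neighbour of Igf2. A_66_P120019 had log2 ratios of 0.031, 0.12 and 0.20 in LOI(+) crypts and of 0.37, 0.12 and 0.22 in LOI(-) crypts. A_66_P130950 had -0.13, -0.21 and -0.11 in LOI(+) crypts and -0.17, -0.14 and -0.12 in LOI(-) crypts. Both overlapped between groups, with differences of -0.12 ± 0.083 and -0.0064 ± 0.057 (SE, n = 3 per group) and adjusted p of 0.843 and 0.991 in limma. Of 6 measured pancreas markers, Ins1, Gcg, Iapp and Pnlip were above the negative controls in Cy3 on all arrays, Pdx1 on 3 and Prss2 on 0. Their summed Cy3 signal, as scanned and without background correction, was 3176 to 3290 on LOI(+) arrays and 3099 to 3443 on LOI(-) arrays. With negative controls at 439 to 449 per probe, a large part of this sum is background. Gcg, the glucagon gene that enteroendocrine cells of the intestine also express, had a Cy3 signal of 657.2 to 889.1 and a mean log2 ratio of 2.12 in LOI(+) and 2.41 in LOI(-) crypts. Ins1, the other insulin gene, had a Cy3 signal of 525.1 to 560.0. Igf2 itself differed by -0.0024 ± 0.058 in the ratio (SE), with 0.031 ± 0.11 in Cy3 and 0.033 ± 0.063 in Cy5. The 95% interval of its ratio difference was -0.14 to 0.13, at an adjusted p of 0.997 in limma, and its Cy3 signal was 622.1 to 728.1. No higher Igf2 level was thus seen in LOI(+) crypts with this probe, and Igf2 did not serve to check the group labels either.

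Th encodes tyrosine hydroxylase, the rate-limiting enzyme of catecholamine synthesis. A_66_P128546 had log2 ratios of 0.0011, -0.024 and -0.12 in LOI(+) crypts and of -0.045, -0.17 and -0.15 in LOI(-) crypts. A_66_P102005 had 0.12, -0.0045 and -0.022 in LOI(+) crypts and 0.048, 0.20 and 0.059 in LOI(-) crypts, and differed in the opposite direction. The differences were 0.073 ± 0.065 and -0.071 ± 0.070 (SE, n = 3 per group), and the groups overlapped for both probes. The 7 measured markers of enteric neurons and catecholamine cells had a mean log2 ratio of -0.0091 in LOI(+) and -0.023 in LOI(-), with 3 higher and 4 lower in LOI(+).

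Tspan32, a tetraspanin of blood cells, had log2 ratios of -0.84, -0.96 and -0.57 in LOI(+) crypts and of -0.74, -0.82 and -0.97 in LOI(-) crypts. Its difference was 0.052 ± 0.11 (SE, n = 3 per group), and the groups overlapped, with LOI(+) 3 above every LOI(-) array. The crypt signal of this probe lay at the level of the negative controls on 3 of the 6 arrays, so its ratio carries little information on the crypts.

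Lsp1, an actin-binding protein of leukocytes, had log2 ratios of -0.084, 0.023 and -0.11 in LOI(+) crypts and of -0.033, 0.11 and -0.046 in LOI(-) crypts. The difference was -0.067 ± 0.069 (SE, n = 3 per group), and the groups overlapped. Of 12 measured leukocyte markers, 11 were lower and 1 higher in LOI(+), 2 of them lower at an unadjusted p under 0.05, beside 2.30% of all probes. The groups did not overlap for 4 of the 12, all lower, beside 5.04% of all probes. Their mean log2 ratio was -0.77 to -0.70 on LOI(+) arrays and -0.63 to -0.59 on LOI(-) arrays. Their summed Cy3 signal, as scanned and without background correction, was 12018 to 14126 on LOI(+) arrays and 13397 to 16084 on LOI(-) arrays. All 12 were above the negative controls on every array, as were 91.4% of all probes. The 2 at an unadjusted p under 0.05 were Ptprc and Cd3g. Their Cy3 signals, 449.7 to 473.6 for Ptprc and 477.5 to 503.6 for Cd3g, were near the controls. The part of leukocytes in the Lsp1 and Tspan32 values was not tested.

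Ctsd, a lysosomal aspartic protease, had log2 ratios of -1.52, -1.26 and -1.29 in LOI(+) crypts, against -1.27, -1.28 and -1.12 in LOI(-) crypts. LOI(+) 1 was the lowest array, LOI(+) 3 lay just below the LOI(-) arrays and LOI(+) 2 among them. The difference was -0.13 ± 0.088 (SE, n = 3 per group), at an adjusted p of 0.838 by limma. Without LOI(+) 1 it was -0.053.

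Tnnt3, the troponin T of fast skeletal muscle, had probes that pointed opposite ways. A_66_P110621 had log2 ratios of -0.32, -0.41 and -0.40 in LOI(+) crypts and of -0.36, -0.23 and -0.30 in LOI(-) crypts. A_66_P127703, whose Cy3 signal was 459.1 to 488.2, had -0.14, -0.24 and -0.21 in LOI(+) crypts and -0.094, -0.38 and -0.25 in LOI(-) crypts. The differences were -0.082 ± 0.061 and 0.043 ± 0.082 (SE, n = 3 per group), with overlap for both. Among 9 measured markers of smooth and striated muscle, 7 were lower and 2 higher in LOI(+), with a mean log2 ratio of -0.34 in LOI(+) and -0.25 in LOI(-). Their summed Cy3 signal was 9340 to 9942 on LOI(+) arrays and 8846 to 10614 on LOI(-) arrays, and their part in the Tnnt3 values was not tested.

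Mrpl23, a protein of the large subunit of the mitochondrial ribosome, is the nearest coding gene to Igf2 on the H19 side. A_66_P101642, its bright probe, had log2 ratios of 0.36, 0.54 and 0.48 in LOI(+) crypts, against 0.31, 0.10 and 0.44 in LOI(-) crypts. LOI(-) 2 was the lowest and LOI(-) 3 lay above LOI(+) 1, so the groups overlapped. The difference was 0.17 ± 0.099 (SE, n = 3 per group), a fold of 1.13, at an adjusted p of 0.828 by limma. Without LOI(-) 2 it was 0.082. Unlike for Kcnq1 A_66_P125861, the larger part stood in the crypt channel, with 0.13 ± 0.12 in Cy3 and -0.040 ± 0.073 in Cy5. A_66_P140841, the probe near the negative controls, had -0.091, -0.028 and -0.056 in LOI(+) crypts and -0.095, 0.092 and 0.14 in LOI(-) crypts. It differed by -0.11 ± 0.075, in the opposite direction, and r between the probes over the 6 arrays was -0.25.

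By side of Igf2, the 6 probes on the H19 side had a median difference of -0.075, with 2 higher and 4 lower in LOI(+), and the 10 probes on the other side one of 0.019, with 5 higher and 5 lower. The 7 probes of genes marked as imprinted had a median of -0.00046, with 3 higher and 4 lower. The 3 probes of Th and Tspan32 had a median of 0.052. Taking the brightest probe of each gene, 5 genes were higher and 5 lower, with a median of 0.023.

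Further lists of genes of the region were read with the brightest probe of each. Of 17 genes written for the imprinted cluster, 13 were measured, 9 higher and 4 lower in LOI(+), with a median difference of 0.087. The 13 include Igf2, which is among the 4 lower. The genes of this list were not marked for imprinting 1 by 1. The counts thus describe a stretch of the chromosome and not a set of imprinted genes. Before adjustment, 3 of the 13 were higher with a p under 0.05, as were 3.82% of all probes, and 0 were lower. After adjustment in limma 0 passed. The sterol reductase gene Dhcr7, at the far end of the region, was at 0.68 ± 0.14 (SE), with log2 ratios of 1.85, 1.73 and 1.43 in LOI(+) crypts against 0.85, 0.89 and 1.24 in LOI(-) crypts. Nap1l4, a histone chaperone gene next to Phlda2, was at 0.20 ± 0.072, with 0.17, 0.33 and 0.13 in LOI(+) crypts against -0.016, -0.043 and 0.072 in LOI(-) crypts. Cdkn1c, a cyclin-dependent kinase inhibitor expressed from the maternal copy, was at 0.16 ± 0.060, with 0.41, 0.47 and 0.53 in LOI(+) crypts against 0.26, 0.35 and 0.32 in LOI(-) crypts. None of these groups overlapped. Of the 13 genes, 5 had groups that did not overlap, all higher in LOI(+), beside 6.26% of all probes in that direction.

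Split by channel, the difference of Dhcr7 was 0.76 in Cy3 and 0.086 in Cy5, and that of Nap1l4 0.19 in Cy3 and -0.018 in Cy5. Cdkn1c differed by -0.062 in Cy3 and -0.22 in Cy5, so that its higher ratio lay in the reference channel, as for Kcnq1 A_66_P125861, although in Cy5 its unadjusted p in limma was 0.0853. Unlike that Kcnq1 probe, Cdkn1c had low signals, 541.6 to 577.2 in Cy3 and 511.3 to 584 in Cy5, which limits this split. Cd81, a tetraspanin gene between Tspan32 and Kcnq1, was at 0.14 ± 0.14 with overlapping groups. No probe matched Ascl2. Of 21 flanking genes written, 16 were measured, 4 higher and 12 lower, with a median of -0.077. Before adjustment, 1 of the 16 had a p under 0.05 as higher, beside 3.82% of all probes, and 1 as lower, beside 2.30%. They were Tollip, an adaptor of innate immune signalling, at 0.23 ± 0.090 and Muc2, the main intestinal mucin, at -0.19 ± 0.073, and neither passed after adjustment in limma.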

How the data were processed

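Each mouse had its own 2-colour Agilent array. The authors deposited the intensity of each spot and of its local background in both dyes. Feature Extraction A.7.5.1 made them, as the file headers show. The processed intensity is background-subtracted and LOWESS dye-normalized, per the file headers. The authors also deposited log10 values, and these matched log10 Cy3 minus log10 Cy5 plus the mean log10 Cy5 (r of 0.998 or more on each array over 41174 features, column medians of 2.90), which settled its scale, centring and direction. The sources used here do not give the authors' own test.

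The background of mean signals was corrected by normexp (offset 50, all spots) and the ratios normalized by loess within arrays, with limma 3.58.1 in R 4.3.3, with control features at weight 0. Features flagged as outliers were left out, saturated ones kept, and spots of a probe averaged. Accessions without versions were matched to RefSeq's GRCm38.p6 gene table, which named 15309 of 41006 probes (37.3%). The model was lmFit and eBayes by group, on probes kept apart. Channels were read after Aquantile normalization, a reading added for Cy5 after the data were seen. Tests were checked on simulated data. Mice are separate animals per the labels. Every probe of the 10 genes is named, and of the neighbour lists those at an unadjusted p under 0.05 with Cdkn1c, Ascl2 and Cd81. The genes and lists were chosen with earlier results of these data known. Alternatives in signal, normalization, filters, test and arrays are given at the end. Of the crypt markers written 9 had a probe, and of the Paneth markers 3, of which Defa5 was saturated on all 6 arrays. Mmp7 had a mean log2 ratio of 5.18 in LOI(+) and 5.34 in LOI(-), and Ang4 3.86 in LOI(+) and 4.22 in LOI(-).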

Additional observations from a re-analysis of the deposited data

How the results depend on the processing

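Under each of 20 other ways of processing or leaving out arrays, 0 probes of the array passed an adjusted p of 0.05, and 8 of the 16 probes kept their sign wherever they were fitted. With 1 probe per gene, 10 of the 16 were fitted. Probes at an unadjusted p under 0.05 numbered 1604 (without LOI(+) 2) to 3596 (without LOI(+) 1), against 2507. Of the 16, the count of 1 became 2 with scale normalization between arrays (Ctsd beside Kcnq1 A_66_P125861), 0 with Cy3 alone and 0 with a trended and robust eBayes, and 0 to 2 without an array: 0 without LOI(+) 3 or LOI(-) 2, and 2 without LOI(-) 3 (Mrpl23 A_66_P101642, at 0.25, beside Kcnq1). Without LOI(-) 1 it stayed at 1, but the probe was Mrpl23 A_66_P140841, at -0.18, and not Kcnq1. Kcnq1 A_66_P125861 stayed above 0 in all, from 0.013 with Cy3 alone to 0.48 with scale normalization, at adjusted p of 0.525 or more.

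The median of the 16 differences was -0.067 on the arrays labelled male, where Slc22a18 turned to -0.068 and Ins2 A_66_P130950 to 0.037. Without background correction Tspan32 stood at -0.0020 and Kcnq1 A_66_P102591 at 0.0062, and that Kcnq1 probe at 0.00064 with the processed signals and 0.00066 with the deposited table. With median centring Tnnt3 A_66_P127703 stood at -0.0057, Tspan32 at -0.028 and Kcnq1 A_66_P102591 at 0.040, and with scale normalization Tspan32 at -0.0069. With Cy3 alone Tnnt3 A_66_P127703 stood at -0.0045, Ins2 A_66_P130950 at 0.0040, Th A_66_P128546 at -0.054 and Kcnq1 A_66_P117573 at -0.033. Leaving out an array turned Tnnt3 A_66_P127703 (-0.025 to 0.12), Ins2 A_66_P130950 (-0.029 to 0.025), Tspan32 (-0.057 to 0.14), Kcnq1 A_66_P102591 (-0.086 to 0.074), Kcnq1 A_66_P117573 (-0.042 to 0.11) and Phlda2 (-0.20 to 0.15). The causes were not tested.

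With the replicate number as a block, 2619 probes had an unadjusted p under 0.05. Kcnq1 A_66_P125861 stood at 0.32 there, with an unadjusted p of 0.0040 and an adjusted p of 0.713 in limma. Deviations of same-numbered arrays correlated at -0.084, -0.25 and 0.35. LOI(+) 1 correlated best with LOI(-) 2, at 0.46, and LOI(+) 3 with LOI(-) 3, at 0.35. With 3 arrays per group these values cannot settle whether the numbers pair the samples, and the main fit used no pairing. Signal near the negative controls limits what 8 of the 16 probes can show.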

Other observations

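The pattern of each gene over the 6 arrays was compared, as a description, with that of 12187 other named genes by the Pearson r of log2 ratios, with the brightest probe of each. The genes most like Kcnq1 A_66_P125861 were Gfod2 (r = 0.995) and Klhl23 (r = 0.991), and 57 genes had an r over 0.95. For Slc22a18 they were Lhx9 and Tnip2 (0.995 and 0.994), for Phlda2 Grik2 and Rhox9 (0.990 and 0.980), for Mrpl23 Armh4 and Prlr (0.997 and 0.996) and for Ctsd Rnf141 and Slco1a6 (0.991 and 0.990). For Ins2 they were Slc38a3 and Tmem167b (0.997 and 0.995), for Th Mmd2 and Spty2d1 (0.992 and 0.985), for Tnnt3 Hyal3 and Ofd1 (0.992 and 0.984) and for Lsp1 Klhl25 and Plk3 (0.963 and 0.962). All values share the arrays and the reference RNA, and with 6 arrays such r arise among many genes.

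Over all probes the reference channel moved less between the groups than the crypt channel, with a median absolute difference of 0.063 in Cy5 and 0.10 in Cy3. For the 16 probes these medians were 0.045 in Cy5 and 0.092 in Cy3.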
